A study of Malus domestica with 2 samples.

Results

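Enzymes and surface proteins that loosen the plant cell wall or act on its pectin were examined in fruit stalks (pedicels) of apple, Malus domestica. The genes were selected on their annotation, by wall-related words (expansin, xyloglucan, cellulase, pectin, pectate, polygalacturonase, glycoside hydrolase families 9, 16 and 28, fasciclin, arabinogalactan) in the annotation of the whole table or of the authors' sheets of differing genes. They were further chosen by their measured values in both libraries: a model was kept if it had at least 1 mapped sequence or a row on a sheet. Of 352 matching gene models among 63541 in the table, 82 were kept, 77 of them with a sequence and 5 through a sheet alone. Lateral pedicels and central pedicels of the cultivar Saika gave 1 library each, sequenced from messenger RNA on a Roche pyrosequencer. The series title calls the apple self-abscising and concerns early fruit drop. The labels name no treatment, collection time or tree age, nor the number of trees or pedicels behind a library. With 1 library per pedicel, no difference has a replicate check, and in bulk tissue fewer cells of a type and less RNA per cell cannot be told apart.

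In the growing wall, cellulose fibrils are held in a mesh of xyloglucan and embedded in pectin, which also fills the middle lamella that glues neighbouring cells together. Expansins loosen this mesh without cutting it, xyloglucan endotransglucosylase/hydrolases (XTHs) cut and rejoin xyloglucan, and cellulases cut glucan chains. Pectinesterases strip methyl groups from pectin, which opens it to polygalacturonases and pectate lyases. When an organ is shed, cells of an abscission zone come apart along the middle lamella, and cellulases and polygalacturonases are the classic enzymes of that step.

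Of mapped sequences there were 18368 in the lateral library, on 13457 gene models, and 18483 in the central library, on 13544. Per the file headers these sequences are contigs, stretches assembled from reads, so a count gives how many contigs of a gene were found and not how many reads lay behind them. The highest count of any gene was 9 in the lateral and 10 in the central library. Words for green tissue matched 89 models, 30 with a sequence, with 25 lateral and 23 central sequences and 19 LP and 9 CP sheet entries. Words for the epidermis gave 47 lateral and 37 central sequences, with 7 LP and 12 CP entries. Words for dividing cells gave 143 and 162, with 10 LP and 14 CP entries, and words for pollen 28 and 25, with 2 LP entries and 1 CP entry. The words also catch other genes. Those for dividing cells match F-box proteins described as Cyclin-like and nuclear factor Y subunits described as Histone-fold. Those for pollen match Pollen allergen, N-terminal, a domain of expansins, with 42 unselected models, 7 lateral and 6 central sequences. Those for the epidermis match whole superfamilies, lipid-transfer and 2S albumin proteins and GDSL lipases. On the sheets the lipid-transfer and 2S albumin entries were mostly CP and the GDSL entries mostly LP. The sums for the epidermis, dividing cells and pollen are therefore not sums over cell type markers alone. The part of the genes found by these words in the results was not tested.

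The wall genes were unevenly caught. XTHs were found most often, with a sequence for 16 of 28 models whose table description names the C-terminal XTH domain (57.1%, 95% exact binomial interval 37.2% to 75.5%). Over all gene models the share was 28.9%, and over those with a description 32.2%. Glycoside hydrolase family 28, the polygalacturonase family, followed with 10 of 26 (38.5%, 20.2% to 59.4%) and the fasciclin domain with 10 of 39 (25.6%, 13% to 42.1%). The pectinesterase inhibitor domain, the largest group in the table, had a sequence for 21 of 126 models (16.7%, 10.6% to 24.3%). None of the models described by glycoside hydrolase family 9 (0 of 4), family 16 (0 of 6), pectin acetyl esterase (0 of 6) or the C-terminal expansin domain (0 of 15) had one. A count of 0 allows a share of up to 0.0163% of the lateral and 0.0162% of the central library. That is a share of contigs, not of reads or RNA, and a gene without a sequence cannot be told from one of low level. Having a sequence is part of the rule that chose the genes, so these shares are a description. Intervals here cover counting error only.

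**Figure D1:**
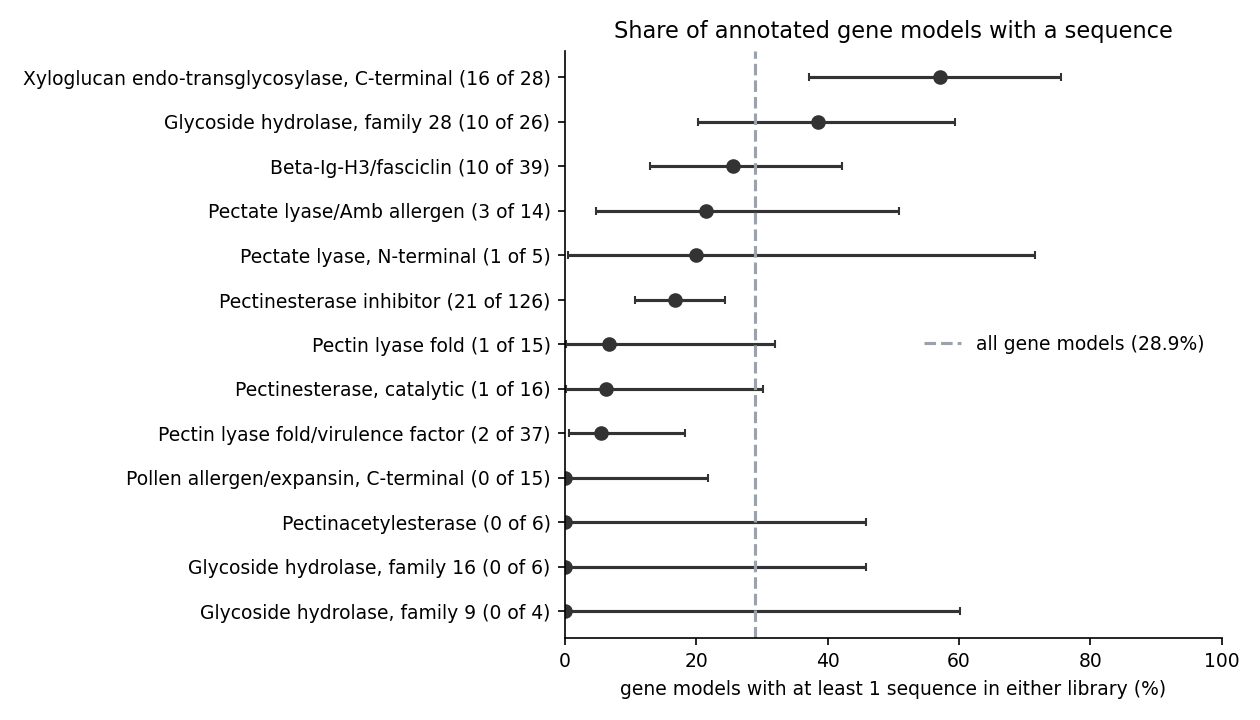
Percent of gene models with at least 1 sequence in either library (x axis) for each matching description of the whole table (y axis, with counts); points are shares, bars 95% exact binomial intervals, and the dashed line is the 28.9% of all gene models. The C-terminal XTH domain is at 57.1% and its interval begins at 37.2%. Shares are not adjusted for gene length, which differs between descriptions.

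Summed over all 82 genes, wall-loosening and pectin-degrading genes held 71 lateral sequences (95% exact Poisson interval 55.5 to 89.6) and 79 central sequences (62.5 to 98.5). They made up 0.387% of the lateral and 0.427% of the central library (95% exact intervals 0.302% to 0.487% and 0.339% to 0.532%). The lateral library gave 47.3% of the sum (39.1% to 55.6%), beside 49.8% over all gene models. The log2 ratio of the sums, lateral over central and scaled by library totals with 0.5 added, was -0.14. The median log2 ratio of the 77 genes with a sequence was 0.01, as it was over all gene models with one. Sequences that also mapped elsewhere made up 1 of the 71 lateral and 9 of the 79 central sequences. Among uniquely mapped sequences the libraries were equal, with 70 lateral and 70 central.

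Equal counts were the commonest outcome. Of the 77 genes with a sequence, 18 had more in the lateral library, 22 more in the central library and 37 (48.1%) the same number in both. Over all 18337 gene models with a sequence, 35.4% had more in the lateral library, 36.2% more in the central library and 28.4% equal counts. The single most frequent state was 1 sequence in each library, seen in 32 genes (41.6%), against 24.1% of all gene models with a sequence. The genes that the sheets of differing genes list had equal counts in 15 of 22 cases (68.2%), and those on no sheet in 22 of 55 (40%). Over all gene models the same shares were 37.5% on a sheet and 27.7% on no sheet. Just inside the limit of the rule lay 28 genes with exactly 1 sequence, and just outside it 270 matching models with none and on no sheet.

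**Figure D2:**
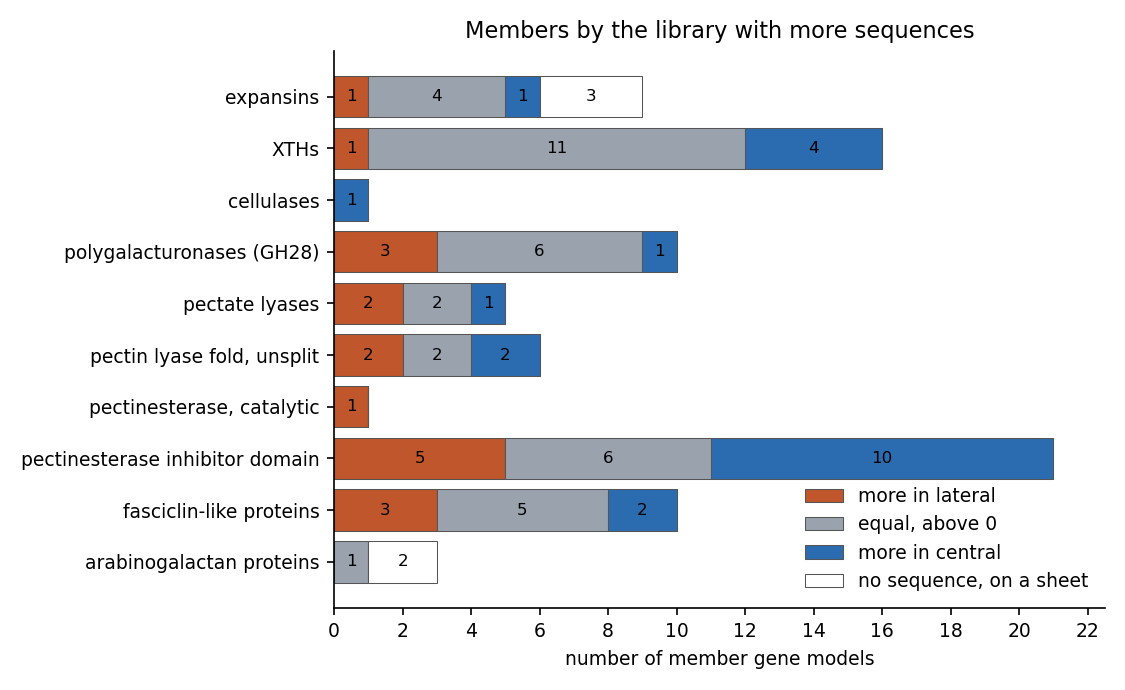
Number of member gene models per family (x axis) with more sequences in the lateral library, equal counts above 0, more in the central library, or no sequence but a sheet entry. Of 16 XTHs, 11 had equal counts, while 10 of 21 genes with a pectinesterase inhibitor domain had more in the central library and 5 more in the lateral library. Over all gene models with a sequence these shares were 36.2% and 35.4%. Bars count all mapped sequences. Uniquely mapped ones of the inhibitor domain numbered 13 lateral and 16 central.

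Expansins were represented by 9 genes with 5 lateral and 5 central sequences. All 9 are on a sheet, since no table description with the word expansin had a sequence. Expansin A8 had 3 copies: MDP0000138500 with 1 lateral and 1 central sequence (71.2 and 70.7 RPKM, sequences per kilobase of gene length and per 1000000 mapped), MDP0000228494 with 1 and 0, and MDP0000772420 with 1 and 1. Expansin A4 also had 3 copies, MDP0000573617 and MDP0000743239 with 1 sequence in each library and MDP0000817926 with none. The libraries thus differed by a single sequence for one A8 copy and by none for the other copies of A8 and A4. Expansin B2 (MDP0000290170), of the beta-expansin branch, had 0 lateral and 1 central sequences. Expansin A1 (MDP0000560112) and expansin A15 (MDP0000574554) had no sequence in either library.

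The XTHs were the richest wall-loosening family, with 17 lateral sequences (9.9 to 27.2) and 21 central sequences (13 to 32.1) over 16 genes. The lateral library gave 44.7% of them (28.6% to 61.7%). MDP0000208105, MDP0000233177, MDP0000269483 and MDP0000361876 each had 2 lateral and 2 central sequences, the highest totals of the family, and lay between 104 and 124 RPKM in both libraries. A further 7 XTHs had 1 sequence in each library. MDP0000140678 had 1 lateral and 2 central sequences, 61.7 and 123 RPKM. MDP0000132431 had 0 lateral and 2 central sequences, and both central sequences also mapped to another model. The XTH genes without an equal count therefore differed by at most 2 sequences. The 1 cellulase found was MDP0000753366, which the sheet annotates as a cellulase of glycosyl hydrolase family 5, a family other than the family 9 endoglucanases. It had 0 lateral and 2 central sequences (0 and 63.5 RPKM).

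**Figure D3:**
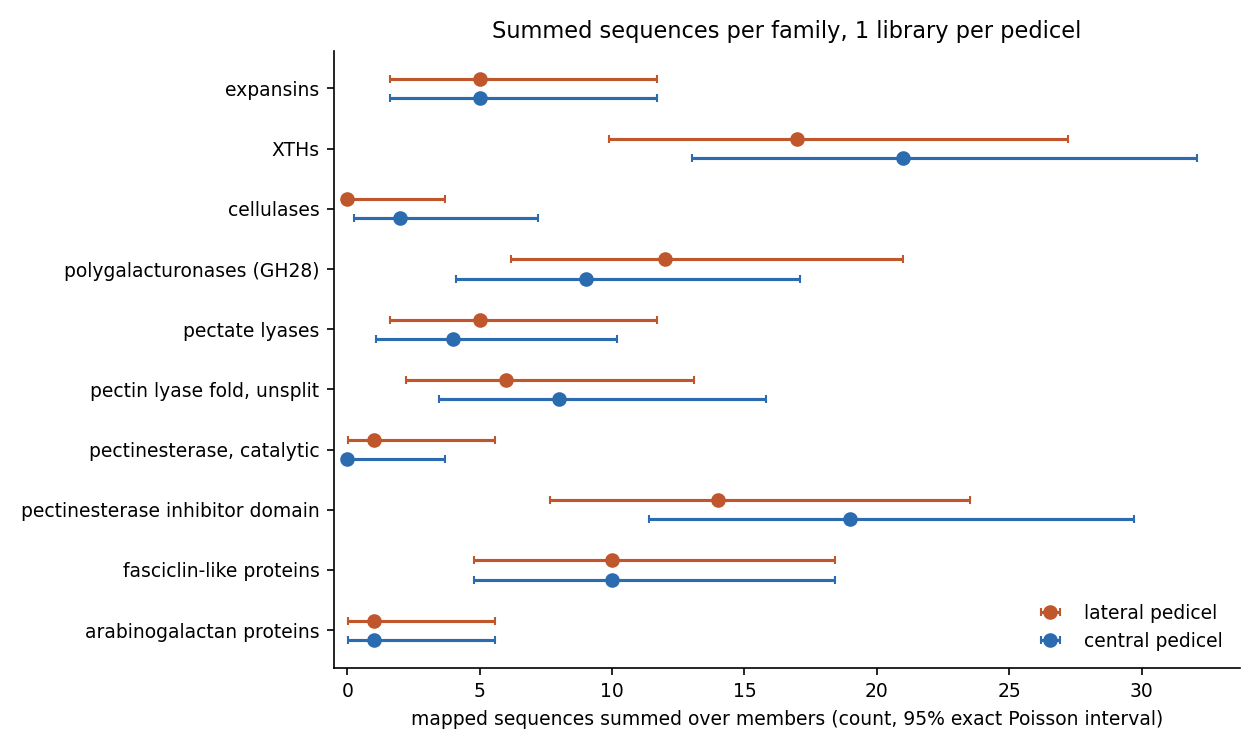
Mapped sequences summed over the members of each family (x axis, counts) in the lateral and the central library, 1 library each; bars are 95% exact Poisson intervals of counting error. The intervals of the lateral and central sums overlap in every family drawn, including XTHs at 17 and 21 and polygalacturonases at 12 and 9.

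Polygalacturonases, which cut the backbone of demethylated pectin, held 12 lateral sequences (6.2 to 21) and 9 central sequences (4.12 to 17.1) over 10 genes. The widest gap of the family was that of MDP0000248311, with 4 lateral and 2 central sequences, all uniquely mapped, and 151 and 75.1 RPKM. It had the highest total of all 82 genes, 6 sequences. The other polygalacturonases had at most 1 sequence in a library: 6 of the 10 genes had 1 in each, MDP0000175027 and MDP0000515489 had 1 lateral and 0 central, and MDP0000128139 had 0 and 1. Pectate lyases, which cut the same backbone by elimination, held 5 lateral and 4 central sequences over 5 genes. MDP0000196711 had 2 lateral and 1 central sequences (109 and 54.3 RPKM).

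A further 6 genes were annotated by the pectin lyase fold alone, a fold that polygalacturonases, pectate lyases and pectinesterases share. They held 6 lateral and 8 central sequences. MDP0000199121 had 0 lateral and 4 central sequences, the widest gap of all 82 genes, but 3 of the 4 also mapped elsewhere and the unique counts were 0 and 1. In the opposite direction MDP0000302503 had 2 lateral and 0 central sequences, both unique (97 and 0 RPKM). MDP0000276859 had 2 in each library.

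Genes with a pectinesterase inhibitor domain held 14 lateral sequences (7.65 to 23.5) and 19 central sequences (11.4 to 29.7) over 21 genes. This domain occurs in small inhibitors of pectinesterase or invertase and also as the leading part of many pectinesterases, and the table description does not separate them. Their gene lengths left a gap, with 14 genes of 525 to 801 bases and 7 genes of 1608 to 4389 bases. The short genes held 8 lateral and 13 central sequences, 38.1% of them lateral (18.1% to 61.6%), and the long genes 6 and 6. Among the short genes, 2 had more in the lateral library, 7 more in the central library and 5 the same number. The shares over all gene models with a sequence were 35.4%, 36.2% and 28.4%. MDP0000264060, at 597 bases, had 1 lateral and 2 central sequences (91.2 and 181 RPKM). For MDP0000171235, MDP0000171990 and MDP0000198094, each with 0 lateral and 1 central sequences, the sequence also mapped elsewhere, and among unique sequences the short genes had 8 lateral and 10 central. The split at 1000 bases was chosen after the lengths were seen. The catalytic pectinesterase domain gave 1 gene, MDP0000549344, with 1 lateral and 0 central sequences.

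Fasciclin-like proteins, glycoproteins of the cell surface and the wall, held 10 lateral and 10 central sequences over 10 genes. MDP0000156830 had 1 lateral and 3 central sequences (27.7 and 82.7 RPKM), and MDP0000184487 had 1 and 2. The 3 genes with a sequence in the lateral library alone, MDP0000236723, MDP0000686466 and MDP0000803873, were all of 741 to 798 bases and had 1 lateral sequence each, and no gene of the family had a sequence in the central library alone. Over all gene models with a sequence, 26.1% had it in the lateral library alone and 26.6% in the central library alone, so 3 of 10 is near the background. Arabinogalactan protein 18 (MDP0000164042) had 1 sequence in each library, and arabinogalactan proteins 14 and 26 had none.

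Too few sequences were available for a test of single genes. In a two-sided Fisher exact test of each gene model against the rest of its library, with Benjamini-Hochberg adjustment over the 24 gene models with at least 10 sequences, 0 (0%) passed an adjusted p of 0.05 together with a 2-fold difference, and none of the wall genes reached 10 sequences. Without a minimum, 0 of 18337 gene models were called, 4 had an unadjusted p under 0.05, and the smallest unadjusted exact p of a wall gene was 0.125, for MDP0000199121. Only the 6 sequences of MDP0000248311 could have given an unadjusted p under 0.05 at any split, at best 0.0153 by the same exact test. At 4 sequences, the next highest total, the smallest possible exact p was 0.0617. Such a test sets 1 library against another, not one kind of pedicel against another, and at these contig counts it says nothing on whether single wall genes differed. edgeR's negative binomial exact test, with an assumed biological coefficient of variation of 0.4, also called 0 gene models, none of them with an unadjusted p under 0.05.

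The authors' sheets of differing genes, headed CP and LP and made with NOISeq per the file headers, listed 27 of the genes, 15 on the LP and 12 on the CP sheet. The LP sheet held 55.6% of them, beside 46.8% of the 1585 entries of both sheets. A sheet entry is part of the rule and the authors chose the entries on these same libraries, so the counts are not independent evidence of a direction. The headers do not say that a gene on a sheet was higher in that pedicel. By the table description alone, 12 of 337 matching models (3.56%) were on a sheet, beside 2.49% of all gene models, and 15 further genes were recognised only by the sheet's annotation. The FDR values below are those the authors deposited with each entry, and their computation is not described in the headers.

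Fasciclin-like genes stood on the LP sheet only, with 3 LP and 0 CP entries. Genes annotated by the pectin lyase fold alone had the same split, 3 and 0, and pectate lyases had 0 LP and 2 CP entries. These 2 groups are set apart by annotation words only, since pectate lyases share the fold. The CP pectate lyase MDP0000322627 has the same sheet annotation as the 3 LP entries, Pectin lyase-like superfamily protein. The opposite splits are therefore not a contrast between known families. Whether such splits differ between families was not tested. FASCICLIN-like arabinogalactan-protein 11 (MDP0000686466, deposited FDR 0) and 12 (MDP0000236723, deposited FDR 9.35e-06) are relatives of Arabidopsis genes of the secondary wall, and each had 1 lateral and 0 central sequences. FASCICLIN-like arabinogalactan 2 (MDP0000904458, deposited FDR 0) had 1 sequence in each library. Of the xylem words, cinnamyl alcohol dehydrogenase 9 (1 lateral and 0 central sequences) and vascular related NAC-domain protein 1 (1 and 0) were on the LP sheet and laccase 14 (3 and 1) on the CP sheet. The xylem words matched these 3 models alone, all of them sheet entries, so they are not a marker set apart from the authors' choice. All 3 had more sequences in the lateral library, and their part in the fasciclin-like entries was not tested.

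Expansins were spread over both sheets, with 4 LP and 5 CP entries. Copies of a single expansin were split between them: expansin A8 had 2 LP entries and 1 CP entry, and expansin A4 had 1 and 2. The copies share an Arabidopsis match, how alike their sequences are was not measured, and every sequence counted for them mapped uniquely. On the LP sheet the smallest deposited FDR values of the family were those of expansin A8 MDP0000138500 (0) and expansin A15 (5.95e-14), and on the CP sheet those of expansin A1 (0) and expansin A4 MDP0000743239 (1.09e-11). Expansins A1 and A15 had no sequence in the whole table, so the sheets and the table do not rest on the same counts for them.

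XTH 5 (MDP0000323987, deposited FDR 0) and XTH 16 (MDP0000873667, 7.46e-10) were on the LP sheet and XTH 32 (MDP0000180043, 1.15e-13) on the CP sheet. Each of the 3 had 1 lateral and 1 central sequence. Gene ontology terms are missing for 663 of the 1585 entries of both sheets, 20 of the 27 wall genes among them. Among entries with a term, these 3 were the only ones with xyloglucosyl transferase activity or the apoplast, and 3 of the 6 with cell wall. The other 3 cell wall entries were reversibly glycosylated polypeptides or their relatives, on the CP sheet.

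Pectin-cutting genes were also on both sheets. Among entries with a gene ontology term, those with polygalacturonase activity were MDP0000610678 on the LP sheet and MDP0000251956 on the CP sheet, both with a deposited FDR of 0 and 1 sequence in each library. The LP sheet further held MDP0000394944, MDP0000276859 and MDP0000302503 of the pectin lyase fold (deposited FDR 0, 3.24e-08 and 1.09e-06). The CP sheet held the pectate lyases MDP0000491898 (deposited FDR 0) and MDP0000322627 (3.08e-06), the family 5 cellulase (1.16e-05), and an invertase/pectin methylesterase inhibitor, MDP0000854242 (2.14e-05). That inhibitor had 0 lateral and 1 central sequences. Of the arabinogalactan proteins, numbers 14 and 18 were on the LP sheet and number 26 on the CP sheet, all with a deposited FDR of 0.

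Most sheet genes gave no direction in the counts. With ties and genes without a sequence included, the share with more sequences in the library their sheet is named for was not above that of all entries. Ties were more common among the wall genes. Equal counts made up 66.7% of LP and 70% of CP genes with a sequence, beside 40% and 35.2% over all entries. Of the 15 LP genes, 4 (26.7%) had more lateral sequences, 0 had more central sequences, 8 had equal counts and 3 no sequence. Of the 12 CP genes, 0 had more lateral sequences, 3 (25%) had more central sequences, 7 had equal counts and 2 no sequence. Over all entries, 31.4% of the LP sheet had more lateral sequences and 34% of the CP sheet more central sequences. Against the sheet name, 116 of the 741 LP entries had more central and 137 of the 844 CP entries more lateral sequences. The 4 LP genes are expansin A8 MDP0000228494, FASCICLIN-like arabinogalactan-proteins 11 and 12, and MDP0000302503, and the 3 CP genes expansin B2, the family 5 cellulase and the inhibitor MDP0000854242. The gap in each was 1 or 2 sequences. A deposited FDR of 0 was given to 8 of the 15 LP genes (53.3%), beside 24.7% of the LP sheet, and to 4 of the 12 CP genes (33.3%), beside 19.4% of the CP sheet.

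**Figure D4:**
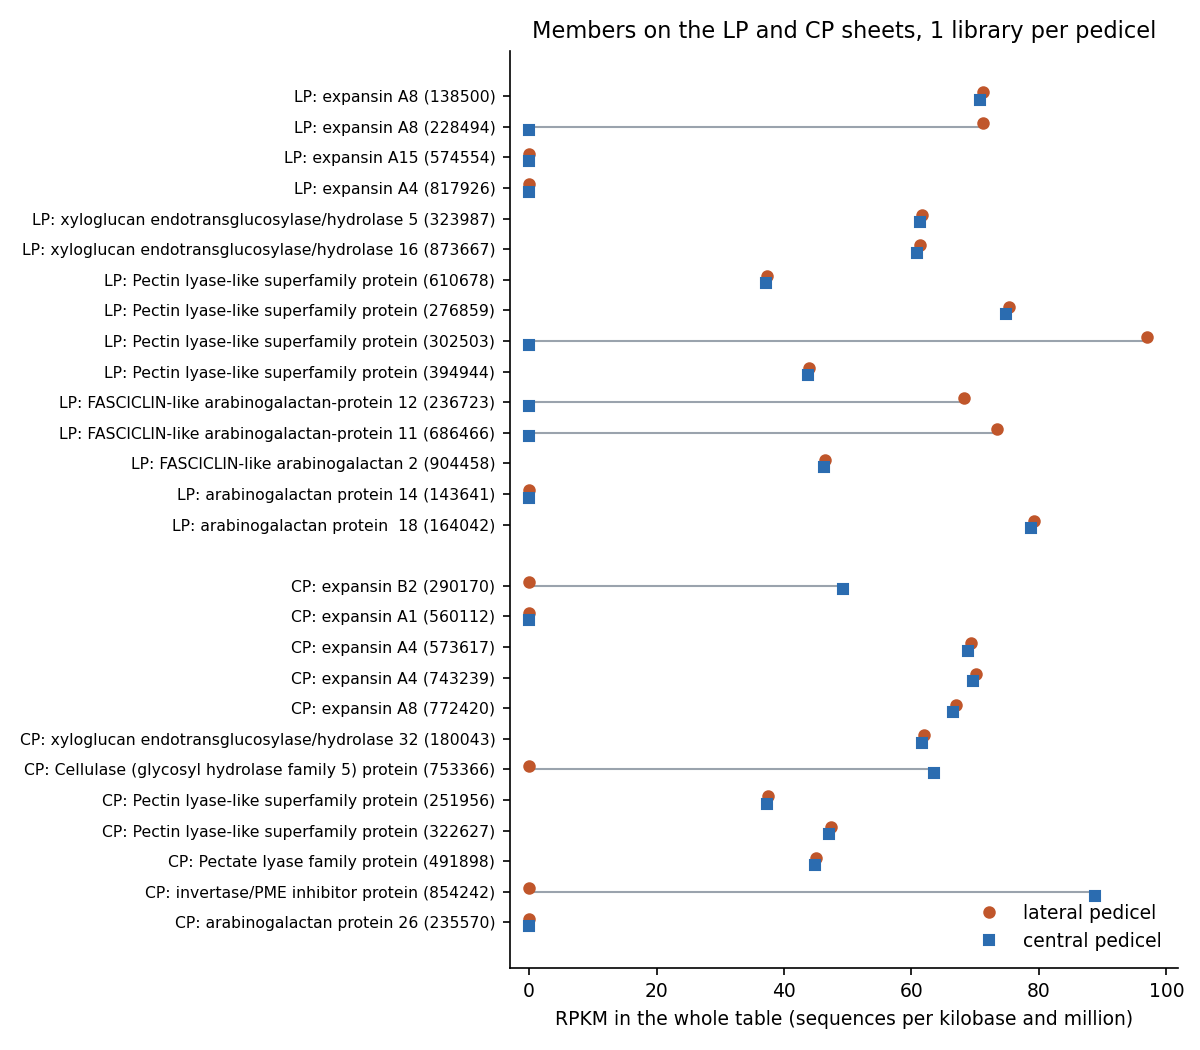
RPKM in the lateral (circles) and central (squares) library, x axis, for the 27 genes on the LP (top) and CP (bottom) sheets, named by sheet annotation and the last digits of the identifier, 1 library each. Most pairs of marks coincide; the 4 LP genes and 3 CP genes that are apart have one mark at 0.

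A separate deposited table gives log2 ratios for 215 genes, and 3 of the wall genes are in it, all on the LP sheet. In the authors' deposited table the polygalacturonase-family gene MDP0000610678 had a log2 ratio of -3.39, FASCICLIN-like arabinogalactan 2 (MDP0000904458) -2.87 and XTH 5 (MDP0000323987) -2.68. The table is headed as lateral over central, yet its ratios are negative for all 113 LP genes and positive for all 78 CP genes, so the sign is printed as deposited and not read as a direction. Among the 113 LP ratios of the authors' deposited table, which run from -6.14 to -1.98 with a median of -2.83, the 3 genes stood in the middle, with 37, 53 and 62 ratios more negative than theirs. In the whole table each of the 3 had 1 lateral and 1 central sequence, a log2 ratio of 0.01. These counts therefore do not give the deposited ratios.

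**Figure D5:**
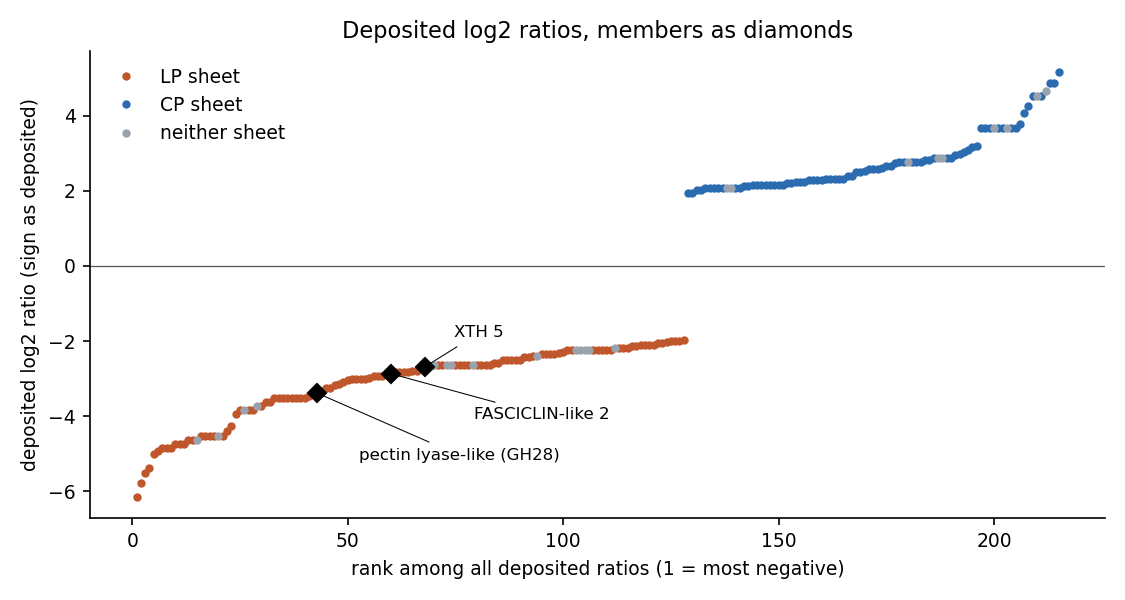
Log2 ratios of the authors' deposited table (y axis, sign as deposited) in order of size (x axis, rank), coloured by sheet, with the 3 wall genes as diamonds. The diamonds lie at -3.39, -2.87 and -2.68 among the LP genes, which all lie below 0.

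Further wall genes were counted by words for their function. Other wall hydrolases, among them families 3, 5, 17 and 35, matched 97 models, 17 with a sequence, with 18 lateral and 20 central sequences. They had 0 LP and 2 CP entries, beta-1,3-glucanase 3 (MDP0000327191, 1 sequence in each library) and a homolog of a carrot chitinase (MDP0000430546, 0 lateral and 1 central). Genes that build wall polymers matched 60 models, 12 with a sequence, with 8 lateral and 15 central sequences, 34.8% of them lateral (16.4% to 57.3%). Of these 12 genes, 2 had more in the lateral library and 8 more in the central library, while the sheets held 4 LP and 2 CP entries. The shares over all gene models with a sequence were 35.4% and 36.2%. Uniquely mapped sequences of the group numbered 7 lateral and 12 central. The LP entries were cellulose synthase like E1 (MDP0000203768, 2 lateral and 0 central sequences, log2 ratio -2.34 in the authors' deposited table), a cellulose synthase family protein without a sequence, galacturonosyltransferase 9, which belongs to a family of pectin synthesis, and a COBRA-like protein (MDP0000883782). The COBRA-like protein had 1 lateral and 3 central sequences, against its sheet name. The CP entries were galacturonosyltransferase-like 10 (1 and 2 sequences) and galacturonosyltransferase-like 3 (0 and 1).

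Structural wall proteins matched 44 models, 18 with a sequence, with 23 lateral and 19 central sequences, 54.8% of them lateral (38.7% to 70.2%). They had 5 LP and 3 CP entries, which include pollen Ole e 1 proteins on both sheets and a late embryogenesis abundant protein on the LP sheet, found through the words extensin and hydroxyproline-rich. Extensin 3 (MDP0000750914), a rod-like wall protein, was an LP entry (deposited FDR 0) without a sequence. A hydroxyproline-rich glycoprotein, MDP0000887072, was on the CP sheet with 1 sequence in each library and a log2 ratio of 2.16 in the authors' deposited table. Lignin genes matched 9 models, 2 with a sequence, with 4 lateral and 1 central sequences. These 2 were laccase 14 on the CP sheet and cinnamyl alcohol dehydrogenase 9 on the LP sheet. Both were already counted under the xylem words, so this is not a separate result.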

How the data were processed

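For 63541 gene models the authors deposited raw counts of mapped and of uniquely mapped sequences, the gene length and RPKM. The counted sequences were trimmed contigs, per the file headers, and the deposited RPKM was recomputed exactly from count, length and total. The authors also deposited CP and LP sheets with a p-value and FDR per gene, from NOISeq per the file headers, and log2 ratios for 215 genes. The labels and headers name no aligner, assembler, gene model release or genome build. A further 12 columns of per-library values were not used.

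Each library is 1 sample, taken from the titles. Members were sorted into families by annotation words, the whole table's first. Counts were tested with the two-sided Fisher exact test and edgeR 4.0.16 (R 4.3.3), with Benjamini-Hochberg adjustment over models with at least 10 sequences. Both were also run on simulated Poisson counts with large set changes, at the depth of these data and at a far greater depth. Those runs check the code and say nothing on how the tests behave on contig counts. Sums carry exact Poisson and shares exact Clopper-Pearson intervals at 95%, for counting error only, and contigs of one transcript are not independent. A count of 0 is taken to allow up to 3 sequences, a one-sided limit; the two-sided Poisson interval of a 0, drawn in the plot of family sums, ends at 3.69. A pseudocount of 0.5 was added for log2 ratios, lateral over central.

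Members and lists were chosen with earlier results of these data known. Named genes are those with at least 4 sequences, a deposited ratio or a sheet entry, and further genes that make up the differences in a family, chosen after their values were seen. Of the member identifiers, 0 were found in the reference gene table, and no sequence or coordinate is printed. Python 3.11.15, numpy 2.4.6, pandas 2.3.3, scipy 1.17.1 and matplotlib 3.10.9 were used.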

Additional observations from a re-analysis of the deposited data

How the results depend on the processing

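No paired analysis was possible because each pedicel has 1 library, and for the same reason no library could be left out. Of 104 alternative values, 95 stayed within 1.5 times the count or within the 95% interval of the log2 ratio (the log2 ratios were not tested, so a change of their sign is no change of a call). Called gene models numbered 0 also without a minimum, with a minimum of 5 sequences, with unique sequences, without a fold threshold and with edgeR. The log2 ratio of the sums of all genes, -0.14, was 0.01 with uniquely mapped sequences, and 0 of 52 alternative log2 ratios left their interval. These intervals are wide, and open on one side where a library had 0 sequences, so staying inside says little. For the pectin lyase fold, -0.38 became 0.25 with unique sequences and -1.87 with members found by the table description alone, both inside the interval. At a deposited FDR under 1e-06, 7 of the 12 CP entries were left, by construction, and 13 of the 15 LP entries. Of 39 alternative sheet counts of single families, 8 moved by over 1.5 times, all 8 downwards since a stricter limit, merged copies or a required sequence can only remove entries. Low contig counts limit every gene: 28 of 77 genes with a sequence had exactly 1, which does not give the reads behind it.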

Other observations

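The words of the rule miss wall genes that the whole table describes by another domain. The values below were looked up after the results were seen. The description Pollen allergen, N-terminal, the leading domain of expansins, was given to 48 models, 13 with a sequence, with 12 lateral and 11 central sequences. Of the 48, 6 were members through their sheet annotation, and the other 42 had 7 lateral and 6 central sequences. In 9 of the 13 models with a sequence the counts were equal. Six-hairpin glycosidase, a fold that family 9 cellulases share with other glycosidases, was given to 40 models, 17 with a sequence, with 22 lateral and 22 central sequences and no sheet entry. The highest contig count of this fold was that of MDP0000146680, with 3 lateral and 3 central sequences. The fold named Concanavalin A-like lectin/glucanase, which includes XTHs and also lectins, was given to 79 models with 26 lateral and 25 central sequences. Its 1 sheet entry was cell wall invertase 4 on the LP sheet (MDP0000275150), an enzyme that splits sucrose in the wall, with 2 lateral and 1 central sequences. Barwin-related endoglucanase, a fold found in expansins, was given to 32 models with 6 lateral and 5 central sequences.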
